A study of Rattus norvegicus with 6 samples.

Results

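The assembled lncRNAs are the long non-coding transcripts that the authors put together from their own sequencing reads and that had no entry in the NONCODE or Ensembl catalogues. They were chosen by name, as the rows of the lncRNA table whose identifier begins with MSTRG, the prefix StringTie gives to a locus it assembles. There were 1768 such transcripts among the 22783 lncRNAs of the table, and they belonged to 1473 loci when isoforms that share the number before the last dot were put together. Of these loci, 1284 had 1 isoform in the table, 137 had 2, 30 had 3 and 22 had 4 or more, up to 12. Isoforms without a row in the table are neither counted nor summed here. Such isoforms may exist, since MSTRG.24059.8, for example, is the only row of its locus but does not carry the first isoform number. Single-isoform loci and sums of loci below are meant in this sense.

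The libraries came from the left, ipsilateral side of the lumbar enlargement of the spinal cord of female adult Wistar rats on day 14, after removal of the meninges. For the 3 libraries of the bone cancer pain (BCP) group, living cells of Walker 256, a rat mammary carcinoma line, had been placed in the marrow cavity of the left tibia. For the 3 libraries of the sham group the same line had been given after killing it by heat, so that both groups carried the operation and tumor material. Libraries were stranded, depleted of ribosomal RNA and sequenced from total RNA, and the comparison asks which transcripts differ between BCP and sham-operated rats. The tumor cells had been grown as ascites in other Wistar rats, each group stands for 1 tumor line in 1 sex at 1 time, and the sources do not say how many rats went into a library. A single piece of tissue holds many cell types, and fewer cells of a type and less RNA per cell cannot be told apart in these counts.

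A transcript assembler joins overlapping aligned reads into transcript models, and where several models cover the same bases it has to divide the shared reads among them. A lncRNA gene model built in this way can be an independent gene, an unspliced precursor of the gene it lies in, or an extended end of that gene. Many lncRNAs are present at low levels and in few cell types, which is why new loci are still found in a tissue as mixed as the spinal cord. Microglia, the resident macrophages of the cord, multiply and change shape after peripheral injury and bone tumors, and their genes are then read more strongly in bulk tissue.

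The largest increases among the assembled loci called up-regulated, by the thresholds given below, lay inside Ptprc, Tnfaip8l3, Lyn and Anxa3. The 250 bases before the start of transcription are shown for Ptprc, Tnfaip8l3 and Anxa3, whose assembled loci rose together in BCP and whose windows hold a shared motif, for which they were chosen. Lyn was not matched in the promoter table. The sequences are from RefSeq on build GRCr8 and are printed from 5′ to 3′ on the strand of the gene, in lower case. Capitals mark GAGGAA or its reverse complement TTCCTC, the core recognised by PU.1, an ETS transcription factor of myeloid cells. The 3 promoters are Ptprc (CD45, the leukocyte tyrosine phosphatase) at chr13:52259747-52259996, minus strand, Anxa3 (annexin A3, a calcium-dependent phospholipid-binding protein) at chr14:13085598-13085847, minus strand, and Tnfaip8l3 (a carrier of phosphoinositide lipids) at chr8:63351688-63351937, minus strand.
Ptprc: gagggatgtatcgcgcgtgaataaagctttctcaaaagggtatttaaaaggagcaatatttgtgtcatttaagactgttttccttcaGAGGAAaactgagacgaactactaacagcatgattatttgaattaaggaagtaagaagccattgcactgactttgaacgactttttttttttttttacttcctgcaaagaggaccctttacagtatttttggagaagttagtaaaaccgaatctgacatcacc
Anxa3: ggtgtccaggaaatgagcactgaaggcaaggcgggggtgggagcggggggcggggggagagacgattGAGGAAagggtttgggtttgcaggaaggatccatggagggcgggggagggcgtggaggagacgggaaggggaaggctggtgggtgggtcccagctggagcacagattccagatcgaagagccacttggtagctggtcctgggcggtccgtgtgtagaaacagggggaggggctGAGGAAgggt
Tnfaip8l3: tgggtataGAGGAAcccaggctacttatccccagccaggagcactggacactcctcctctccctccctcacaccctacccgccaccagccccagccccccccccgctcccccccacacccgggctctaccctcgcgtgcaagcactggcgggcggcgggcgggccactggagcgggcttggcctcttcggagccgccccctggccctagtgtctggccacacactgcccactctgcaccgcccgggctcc
The core began 163 bases before the start of Ptprc, 183 and 10 bases before that of Anxa3 and 242 bases before that of Tnfaip8l3. Of the 33469 promoters in the RefSeq table, 23.3% held the core in the same 250 bases, so its presence is a description of these windows and no evidence of binding. Of the 5 genes with enough counts to be tested whose span holds an up-regulated assembled locus, 4 were matched in that table, the fourth being Arhgap22, whose window did not hold these letters. The assembled transcripts themselves lie on build Rnor_6.0, for which no genome was used here, and their own bases are not printed.

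The assembled transcripts were long. Their median length was 2512.5 bases, with a range from 201 to 36951, against a median of 656 for NONCODE and 809 for Ensembl lncRNAs. In 570 of them, or 32.2%, the exons covered at least 95% of the span on the chromosome, so that little or no intron was left, and the same held for 47.9% of the NONCODE and 4.61% of the Ensembl transcripts. By position, 755 transcripts (42.7%) overlapped the span of a gene of the gene table, 212 (11.99%) lay within 10 kb of one and 801 (45.3%) lay farther away. Overlap was judged on either strand, because the table gives no strand, and it does not tell exon from intron, because the table gives no exons.

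The BCP libraries were somewhat shallower than the sham libraries. They held 1946315 to 2191034 counts on lncRNAs against 2231298 to 2531114 in the sham group, and 11779485 to 13764758 against 13366905 to 15004290 counts on genes. Assembled transcripts took 17.3% ± 0.230 of the lncRNA counts in sham-operated rats and 17.2% ± 0.213 in BCP rats (SD, n = 3), and the difference of -0.0668 percentage points did not exceed the spread between libraries (exact permutation test, two-sided, p = 0.60, with 0.10 the smallest p that 3 against 3 allows). Tissue markers were those of spinal cord, with summed levels of 6106 to 6292 CPM for 7 neuronal genes and 38298 to 43528 CPM for 6 oligodendrocyte genes in the sham libraries. CPM are the counts of a library scaled to a common total of 1e6 after TMM scaling, computed within each table.

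After edgeR's filter on low counts 1613 assembled transcripts were tested and 155 were not. A transcript was called when its Benjamini-Hochberg adjusted p was under 0.05 in edgeR's quasi-likelihood test and its level differed more than 2-fold. By these rules 6 assembled transcripts were up-regulated and 4 were down-regulated in BCP rats, that is, 0.372% and 0.248% of those tested. Over all 12157 lncRNA transcripts tested, 1.14% were called up and 0.074% down, so the share of members called up was under that of the whole table and the share called down was above it. The median log2FC was -0.02 for the assembled transcripts and -0.01 for all transcripts tested. Without sham replicate 3 the number called up was 10, and the number called down was 7 without sham replicate 1, 1 without sham replicate 2 and 2 without BCP replicate 3. The member just inside the threshold was MSTRG.15106.1 (adjusted p = 0.0499) and the one just outside was MSTRG.11729.1 (adjusted p = 0.0527).

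When the isoforms of each locus were added up, 1420 loci were tested. Of these 7 were up-regulated (0.493%) and 1 was down-regulated (0.0704%), beside 1.29% and 0.0669% of all 11964 rows of that fit. The up-regulated loci were thus about the same in number as the up-regulated transcripts, whereas 3 of the 4 down-regulated transcripts were isoforms of loci whose sum did not pass the test. At an unadjusted p under 0.05 there were 251 loci, or 17.7%, beside 13.8% of all rows. The down-regulated locus, MSTRG.15106, lost its call whichever library was left out.

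The smallest adjusted p was shared by MSTRG.29606 and MSTRG.9517. MSTRG.29606 is a single transcript of 4221 bases at chr8:58637292-58641625 inside the span of Tnfaip8l3. Sham libraries held 20, 17 and 18 counts of it, and BCP libraries held 134, 180 and 191. Every BCP library was far above every sham library, and the level went from 8.05 ± 1.10 to 81.0 ± 10.8 CPM (SD, n = 3), with a log2FC of 3.32 ± 0.19 (standard error, adjusted p = 5.4e-05). Tnfaip8l3 itself rose from 4.62 ± 0.568 to 25.2 ± 4.30 CPM of the gene table, with a log2FC of 2.45 ± 0.15. The increase of the lncRNA was thus larger than that of its gene in the fitted values, a difference between tables that was not tested. MSTRG.29606.1 is also the assembled transcript that the study names as up-regulated, a choice it made on these libraries.

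MSTRG.9517 (chr14:14418356-14422468, 1 transcript of 4004 bases) lies in the span of Anxa3. Its counts were 85, 96 and 84 in sham-operated rats and 329, 449 and 470 in BCP rats, so that the groups were well apart. The level rose from 38.7 ± 3.68 to 200.1 ± 26.9 CPM, with a log2FC of 2.37 ± 0.13 (adjusted p = 5.4e-05), and Anxa3 had a log2FC of 2.30 ± 0.17. MSTRG.23177 (chr5:16581521-16585404, 3864 bases) lies in the span of Lyn, a Src-family kinase of myeloid and B cells. It had 34, 23 and 25 counts in the sham and 131, 175 and 133 in the BCP libraries, a log2FC of 2.55 ± 0.22 (adjusted p = 0.00109), where Lyn had 2.31 ± 0.11. These 3 loci passed the thresholds under every alternative run for them.

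Ptprc held a pair of up-regulated loci. MSTRG.8679 (chr13:55168036-55173104, 4939 bases) lies at the higher end of the Ptprc span (chr13:55061562-55173692), and MSTRG.8678 (chr13:55153850-55157443, 2571 bases) lay farther inside. MSTRG.8679 had 26, 18 and 38 counts in sham-operated rats and 141, 255 and 296 in BCP rats, and MSTRG.8678 had 13, 14 and 4 against 71, 110 and 117. In both loci the lowest BCP library was several times the highest sham library. Their log2FC were 3.21 ± 0.34 (adjusted p = 0.00670) and 3.37 ± 0.41 (adjusted p = 0.00708), and that of Ptprc was 3.42 ± 0.21 (14.0 ± 3.18 to 149.5 ± 22.1 CPM). Without sham replicate 1 the adjusted p of MSTRG.8679 was 0.0563, with a log2FC of 3.21. Since the loci share a gene, they are not independent of each other.

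The other up-regulated loci were weaker or had no gene at hand. MSTRG.16056, a locus with a pair of isoforms over chr2:52680371-52713827, had its nearest gene of the table, AABR07008300.1, 21590 bases away. Its summed counts were 47, 38 and 52 in the sham and 104, 141 and 143 in the BCP libraries, a log2FC of 1.64 ± 0.18 (adjusted p = 0.00264), and the groups did not overlap. Of its isoforms MSTRG.16056.1 had 42, 25 and 34 against 81, 113 and 106 counts (adjusted p = 0.0127, and between 0.0571 and 0.0621 without sham replicate 3, BCP replicate 2 or BCP replicate 3) and MSTRG.16056.2 had 5, 13 and 18 against 23, 28 and 37 (adjusted p = 0.159). MSTRG.11729 (chr16:9554135-9556121), in the span of Arhgap22, a GTPase-activating protein of the Rac pathway, had 15, 20 and 13 against 38, 35 and 66 counts and a log2FC of 1.67 ± 0.34 (adjusted p = 0.0396). Leaving out any 1 of the 6 libraries raised that adjusted p to between 0.0535 and 0.147. Arhgap22 had a log2FC of 0.67 ± 0.12 (edgeR adjusted p = 0.000266), under the 2-fold threshold. In MSTRG.29606, MSTRG.9517, MSTRG.23177, MSTRG.8679 and MSTRG.11729 the exons covered at least 95% of the span on the chromosome. In MSTRG.8678 and the isoforms of MSTRG.16056 they did not. Whether any of these loci is an unspliced precursor of the gene around it was not tested.

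**Figure D1:**
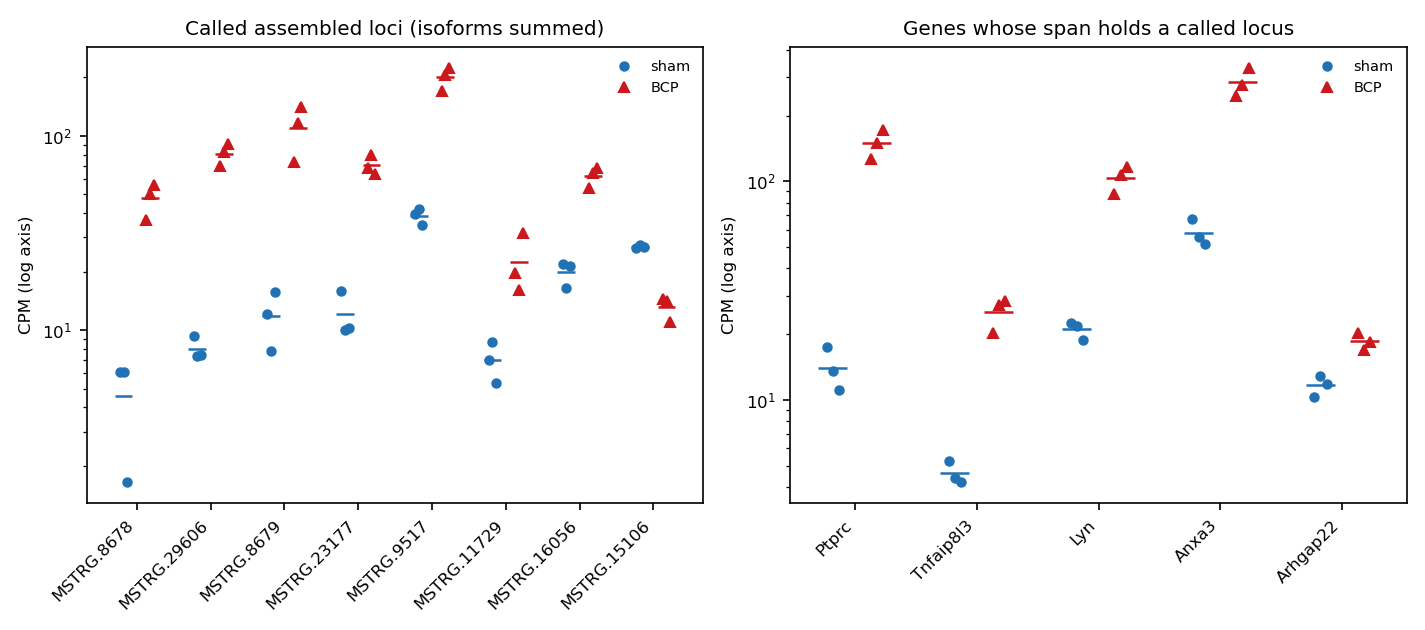
Level in CPM (log axis) of each called assembled locus (left) and of the genes whose span holds one (right) in the 3 sham (blue circles) and 3 BCP (red triangles) libraries, with the group mean as a bar. In the 7 up-regulated loci every BCP point is above every sham point, and in MSTRG.15106 every BCP point is below.

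The genes around the called members were then read in the gene table, where edgeR tested 14908 genes and called 6.35% of them up-regulated. Within 10 kb of a called transcript or locus there were 6 genes, 5 of which had enough counts to be tested. Of these, 4 were called up, namely Ptprc (adjusted p = 0.000332), Anxa3 (0.000753), Lyn (8.1e-08) and Tnfaip8l3 (1.9e-10), each by edgeR's quasi-likelihood test with Benjamini-Hochberg adjustment. Within 100 kb there were 23 genes, with the same number called up. The gene fit and the lncRNA fit use the same 6 libraries, and whether reads of a lncRNA and of the gene around it were told apart by strand is not given in the sources used here, so the 2 sets of values stand side by side and are not independent.

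The reverse reading started from the genes. There were 651 pairs of a tested assembled locus and a tested gene with overlapping spans, in 606 of which the locus lay wholly inside the gene, and in 13 pairs the gene had been called up. These were 12 of 518 such genes, or 2.32%, beside the 6.35% of all genes. The log2FC of these 13 loci ran from -0.08 to 3.37, with a median of 1.33, and 5 of them were called up, where 0.493% of all tested assembled loci were. Beside the loci in Ptprc, Lyn, Anxa3 and Tnfaip8l3, loci with a high fitted log2FC were MSTRG.4388 in Lcp2, an adaptor of immune receptor signaling, with 17, 7 and 5 against 36, 35 and 35 counts (log2FC 1.98, adjusted p = 0.0577), and MSTRG.27040 in Gna15, a G protein subunit of blood cells, with 10, 18 and 19 against 30, 40 and 37 counts (log2FC 1.33, adjusted p = 0.0534). At the other end MSTRG.31937 in Lrrfip1 had 238, 276 and 270 against 234, 206 and 226 counts, a log2FC of -0.08, while Lrrfip1 had 1.12. MSTRG.16755, which overlaps Gpr171, had a log2FC of -0.05, while that gene had 2.32. The loci over up-regulated genes thus ran from level to strongly higher, and those in Lcp2, Gna15, Lrrfip1 and Gpr171 were named after their values were seen.

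Cell type markers moved with the groups. Of 14 marker lists, 5 held called genes, all of them up-regulated: 8 of 10 microglial genes, 6 of 6 genes of MHC class II, 7 of 7 T cell genes, 3 of 4 red blood cell genes and the 1 tested of 5 neutrophil genes. The summed microglial level was 236.6 to 321 CPM in the sham and 935 to 1160 CPM in the BCP libraries, that of MHC class II 16.8 to 23.9 and 1510 to 1660, that of T cells 6.08 to 6.64 and 49.0 to 56.1, and that of red blood cells 244 to 258 and 465 to 675. Most of the T cell sum in the sham libraries was Cd4, with a mean of 5.09 CPM there and 21.9 CPM in the BCP libraries. Summed oligodendrocyte markers were 38298 to 43528 CPM in the sham and 27409 to 30592 in the BCP libraries. Those of neurons were 6106 to 6292 CPM in the sham and 5383 to 5948 in the BCP libraries. Summed astrocyte markers were 5923 to 6202 and 7026 to 9103 CPM, with Gfap, the astrocyte filament protein, at a log2FC of 0.80 and Aqp4 at 28568 counts in BCP replicate 1 against 4637 to 5427 in the other 5 libraries, while Slc1a2 (-0.37), S100b (-0.37) and Aldh1l1 (-0.26) were lower (edgeR adjusted p under 0.05 for these and Gfap). Defining markers of B and plasma cells summed to at most 1.06 CPM in any library. The part of these shifts in the changes of the assembled lncRNAs was not tested.

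Without the threshold on the fold, 32 loci were higher and 7 lower at an adjusted p under 0.05, that is, 2.25% and 0.493% of the assembled loci tested, beside 1.84% and 0.527% of all rows of the fit in the same directions. The 25 higher loci under 2-fold had log2FC between 0.44 and 1.00. Of these, 16 overlapped a tested gene, and the 14 genes had log2FC from 0.05 to 1.06. An edgeR adjusted p under 0.05 was found for 10 of the 14 genes. It was not found for Fam210a (log2FC 0.25), Tbc1d5 (0.12), Rapgef2 (0.09) and Ranbp9 (0.05). The 2 loci in Srgap2, which codes for a GTPase-activating protein of neuronal migration, were MSTRG.8561 with 1065, 1115 and 1153 against 1512, 1739 and 1976 counts (log2FC 0.79 ± 0.08) and MSTRG.8560 with 375, 358 and 468 against 542, 647 and 655 counts (0.76 ± 0.09), while Srgap2 had 0.45 ± 0.05. The pair in Ldlrad4, a negative regulator of TGF-beta signaling, had log2FC of 0.71 ± 0.08 (MSTRG.14397) and 0.60 ± 0.10 (MSTRG.14396), against 0.35 ± 0.08 for the gene. Other hosts were Cux1, a homeobox transcription factor (MSTRG.7739, 0.69 ± 0.11), Tbc1d1, a Rab GTPase-activating protein (MSTRG.9792, 0.66 ± 0.10), Pde3b, a cyclic nucleotide phosphodiesterase (MSTRG.2518, 0.65 ± 0.12), and Ski, a repressor of TGF-beta target genes (MSTRG.25122, 0.61 ± 0.13). These loci and genes were named after their values were seen.

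Among the lower loci, MSTRG.19753, which lies 9691 bases from Commd9, had 1254, 1366 and 1078 counts in the sham and 704, 715 and 723 in the BCP libraries, with a log2FC of -0.65 ± 0.11 (adjusted p = 0.0284). MSTRG.4440 (chr10:24800650-24814532) had 942, 882 and 1084 against 602, 700 and 549 counts and a log2FC of -0.51 ± 0.09 (adjusted p = 0.0293). The pair that overlapped a tested gene were MSTRG.23934 in Slc24a2, a sodium, calcium and potassium exchanger of neurons (-0.37 ± 0.08, gene -0.19 ± 0.04), and MSTRG.7837 in Auts2l (-0.46 ± 0.08, gene -0.28 ± 0.21). The remaining lower locus was MSTRG.15106 (chr19:36226340-36231145, 703 bases, 7085 bases from AABR07043711.2, a gene listed at 0 counts in every library). Its counts were 57, 63 and 65 against 28, 31 and 23, its log2FC was -1.02 ± 0.21 (adjusted p = 0.0407), and the adjusted p lay between 0.0701 and 0.151 when any 1 library was left out.

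**Figure D2:**
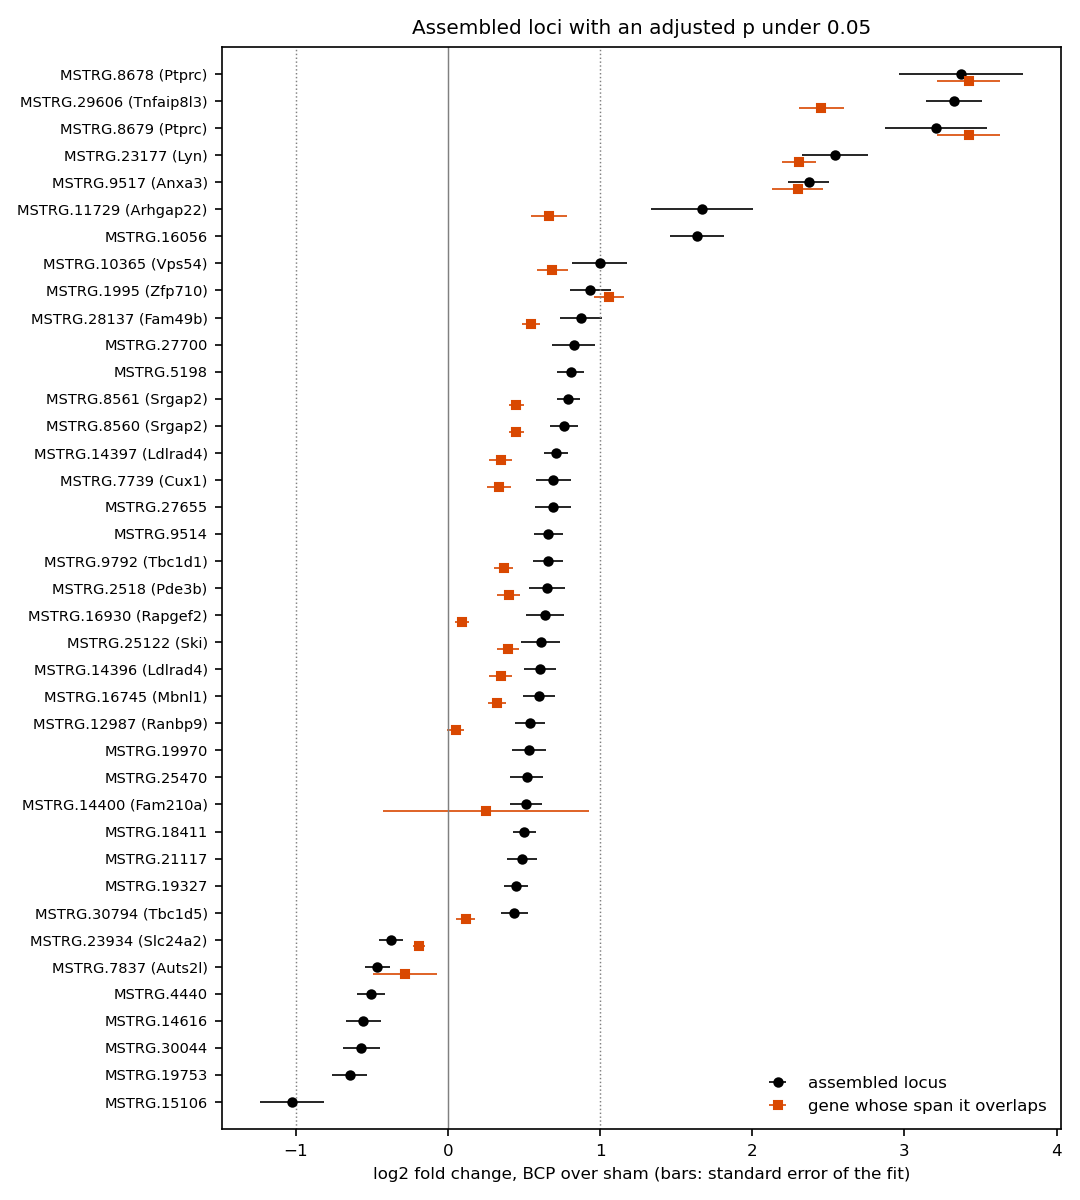
Log2FC of BCP over sham for the 39 assembled loci with an adjusted p under 0.05 (black circles) and for the tested gene whose span each overlaps, where there is 1 (orange squares, gene name in parentheses), with the standard error of each fit as a bar and dotted lines at 2-fold. The 5 loci in Ptprc, Tnfaip8l3, Lyn and Anxa3 lie between 2.37 and 3.37 and these genes between 2.30 and 3.42, while the 25 higher loci under 2-fold lie between 0.44 and 1.00.

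The down-regulated transcripts behaved otherwise. MSTRG.19227.2 (chr3:27166506-27169797, 3258 bases) had 57, 76 and 57 counts in sham-operated rats and 0 in all 3 BCP libraries, at least 19.1-fold lower when 3 counts per library were taken as the floor (adjusted p = 0.00268). Its companion MSTRG.19227.1, whose span holds all of it, had 370, 245 and 350 against 276, 378 and 314 counts. The sum of the locus was 427, 321 and 407 against 276, 378 and 314 counts, with overlapping groups and a log2FC of -0.12 ± 0.13 (adjusted p = 0.770).

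MSTRG.16806.2 (chr2:156857842-156861509, 2651 bases) had 128, 111 and 65 counts in sham-operated rats and 0 in every BCP library, at least 30.9-fold lower (adjusted p = 0.00780, and 0.0770 without sham replicate 2). The other isoform, MSTRG.16806.1, of 2690 bases, begins 3 bases before it and ends at the same base. The locus as a whole had 1090, 1151 and 1210 counts against 974, 1025 and 948, a log2FC of -0.08 ± 0.06 (adjusted p = 0.639), and the share of the locus held by MSTRG.16806.2 in the sham libraries was 8.81%.

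MSTRG.29281.3 (chr8:33201289-33203661) had 78, 92 and 82 counts in sham-operated rats, where it was the whole of the locus, and 15, 28 and 18 in BCP rats (log2FC -1.91 ± 0.24, adjusted p = 0.00829). Its adjusted p was 0.0505 without sham replicate 2 and 0.0521 without BCP replicate 3. In the BCP libraries the rest of the reads stood on isoforms with the same start, MSTRG.29281.2 with 57 counts in BCP replicate 1 and MSTRG.29281.1 with 64 and 60 in BCP replicates 2 and 3. The sums were 78, 92 and 82 against 72, 92 and 78 counts, and the locus had a log2FC of 0.08 ± 0.15.

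The study names 12 assembled isoforms as down-regulated, which it chose on these same libraries, so that their direction in these libraries is not independent evidence. The study also measured some of them by RT-qPCR on other samples, and those measurements were not examined here. All 12 belong to loci with 2 or more isoforms, 10 of them had 0 counts in every BCP library, and in 7 of them at least 1 sham library also had 3 counts or fewer. With edgeR's filter 4 of the 12 were tested and 2 were called down, whereas DESeq2 called 7 of them down. MSTRG.12616.2 had 0, 990 and 837 counts in sham-operated rats and 0 in the BCP libraries, MSTRG.9921.3 had 497, 0 and 1015 against 0, and MSTRG.32467.2 had 534, 311 and 0 against 0. In all 3 a sham library was as empty as the BCP libraries. In 6 of the 12 isoforms the BCP libraries were all below the sham libraries in CPM, where this held for 7.02% of all lncRNA rows, and it held for 2 of their 12 loci, where it held for 7.11% of all rows. Nothing is read from these shares, since the comparison that chose the list is the same.

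At the level of the locus the differences were under 2-fold. Their log2FC ran from -0.63 to 0.33, with a median of -0.15, and edgeR's quasi-likelihood test called none of the 12 down, nor did DESeq2. In edgeR's test 3 of the 12 had an unadjusted p under 0.05, beside 13.8% of all rows of the locus fit. These were MSTRG.4440 (log2FC -0.51) and MSTRG.4193 (-0.40), which were lower, and MSTRG.16194 (0.33), which was higher. The sums of MSTRG.12616 were 2162, 2376 and 2482 against 1941, 2009 and 1604 counts, those of MSTRG.9921 1647, 1601 and 1919 against 1521, 1615 and 1645, and those of MSTRG.11320 1683, 1652 and 1864 against 1651, 1558 and 1629. The lowest log2FC, -0.63 ± 0.30, was that of MSTRG.29385, where MSTRG.29385.15 had 116, 321 and 538 counts in sham-operated rats and 0 in the BCP libraries. The sums of that locus were 992, 1070 and 1169 against 853, 551 and 459 counts (edgeR adjusted p = 0.467), and the groups did not overlap. MSTRG.4440 had the smallest adjusted p (0.0293, above). In the sham libraries the 12 isoforms held a median of 27.6% of the counts of their locus.

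**Figure D3:**
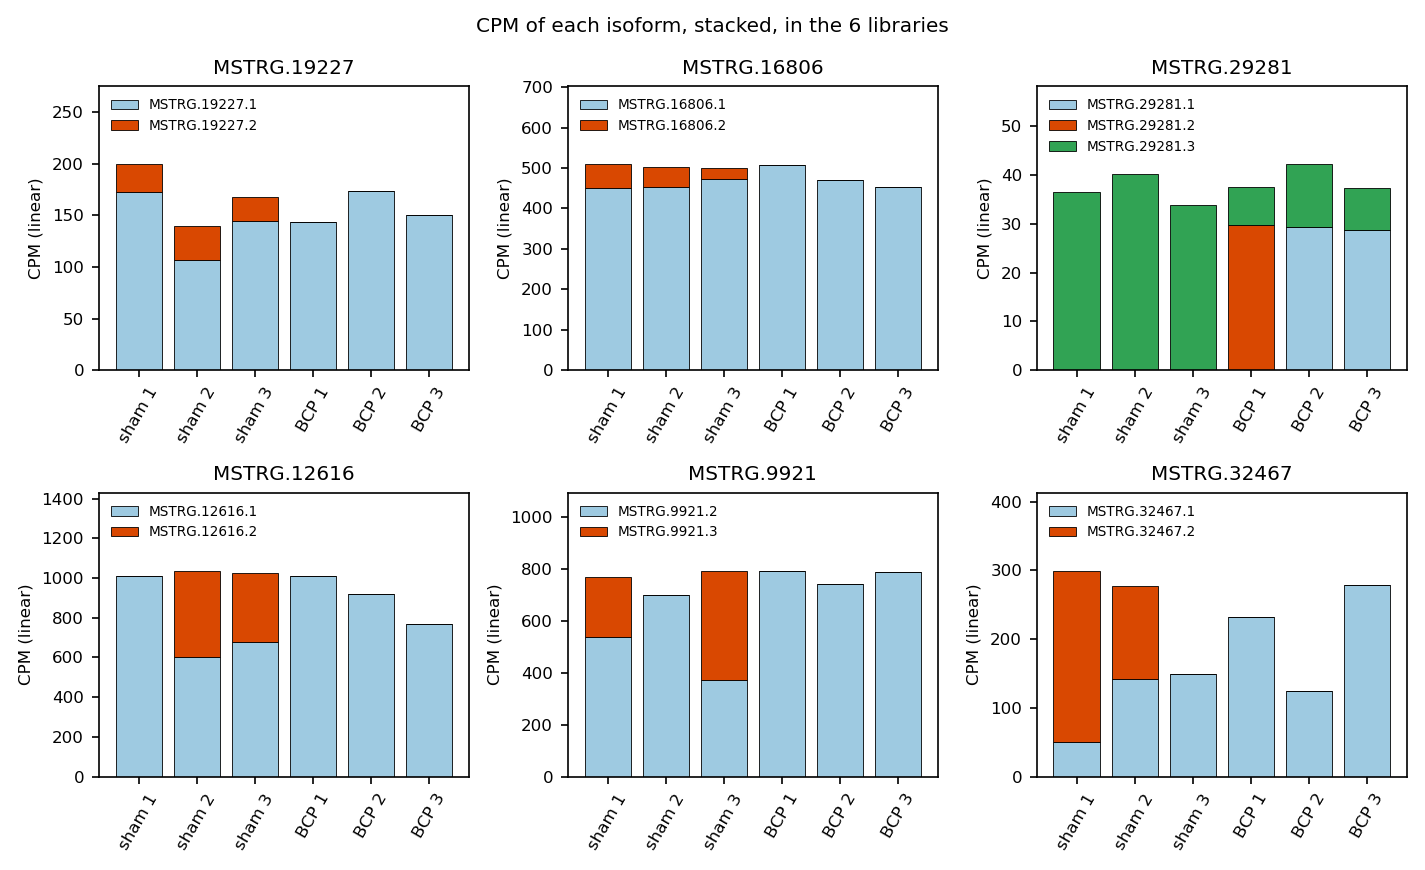
CPM (linear axis) of the isoforms of 6 assembled loci, stacked, in each of the 6 libraries. The orange isoforms MSTRG.19227.2 and MSTRG.16806.2 are present in the sham libraries and absent in BCP, those of MSTRG.12616, MSTRG.9921 and MSTRG.32467 are also absent in 1 sham library each, MSTRG.29281.3 (green) shares its locus with other isoforms in BCP alone, and in all 6 loci the heights of the whole bars overlap between groups.

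Isoform usage was tested in the 130 assembled loci with 2 or more tested isoforms, with edgeR's test of unequal change among isoforms. It called 4 loci, or 3.08%, and 7 without sham replicate 2, and 13 had an unadjusted p under 0.05. They were MSTRG.19227 (adjusted p = 0.000103), MSTRG.16806 (0.000269), MSTRG.29385 (0.00237) and MSTRG.16194 (0.0383). The calls of MSTRG.19227 and MSTRG.16806 were kept under all 9 alternatives, and that of MSTRG.29385 under 7. MSTRG.16194, in the span of Fam134b (a receptor for autophagy of the endoplasmic reticulum), kept its call under 3 of 9, with adjusted p of up to 0.704, and lost it with any 1 sham library or BCP replicate 2 left out (0.0625 to 0.126). Its isoform MSTRG.16194.3 had 382, 166 and 514 counts in the sham and 3, 16 and 0 in the BCP libraries, but in the BCP libraries the reads went to different isoforms, with MSTRG.16194.1 at 750, 688 and 146 and MSTRG.16194.2 at 0, 67 and 636. All 4 loci hold an isoform that the study names. The next locus by p was MSTRG.16440 (adjusted p = 0.146), where MSTRG.16440.9 had 379, 334 and 412 against 151, 57 and 61 counts and MSTRG.16440.10 had 262 counts in BCP replicate 3 and 0 elsewhere.

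Such switching was common within groups as well. Of the 410 isoforms of multi-isoform loci that reached 50 counts in some library, 122 (29.8%), in 93 loci, had 0 counts in 1 library and at least 50 in another library of the same group. This was seen within the sham group for 75 transcripts, within the BCP group for 86 and within both for 39. Among the 991 transcripts of single-isoform loci that reached 50 counts it was seen in 0, and among the sums of multi-isoform loci in 0 of 178. Over all assembled transcripts it was seen in 122 of 1401 (8.71%), among NONCODE transcripts in 73 of 5181 (1.41%) and among Ensembl transcripts in 1 of 130. The NONCODE and Ensembl rows could not be split by isoforms per locus, so the share over all assembled transcripts is the one to set beside theirs. The 122 isoforms had a median length of 4399.5 bases, against 3913.5 for the other 288 isoforms with 50 counts, and 48.4% of them, against 30.2%, had exons over at least 95% of their span.

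Wide swings were seen among tested transcripts too. MSTRG.17697.2, in the span of Ank2, the ankyrin of axons and muscle, had 1, 1632 and 752 counts in sham-operated rats and 1161, 5 and 872 in BCP rats, while the locus had 2052, 2027 and 3044 against 1943, 2326 and 2091. MSTRG.19421.2, 7124 bases from Scn9a, the voltage-gated sodium channel Nav1.7 of nociceptors, had 1, 587 and 511 against 580, 586 and 0 counts, its partner MSTRG.19421.1 had 575, 0 and 171 against 0, 0 and 559, and their sums were 576, 587 and 682 against 580, 586 and 559. MSTRG.28039.14 in Samd12 had 0, 0 and 1616 against 0, 536 and 1176 counts. MSTRG.9836.1 had 1529, 1011 and 688 against 0, 1481 and 1585. MSTRG.19753.3, with the most negative log2FC (-2.03 ± 2.84) of the 10 tested transcripts of widest range, had 731, 836 and 0 against 0, 375 and 0. In each of these the groups overlapped, and the standard errors of the log2FC were 1.84 or more.

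Measured over the tested members, the spread within groups was small for single-isoform loci and for sums, and wide for isoforms. The SD of log2(CPM + 1) between libraries of a group had a median of 0.20 for the 1231 tested transcripts of single-isoform loci, 0.52 for the 382 tested isoforms of larger loci and 0.17 for the sums of the 189 larger loci. An SD over 1 was found in 0.325%, 33.8% and 1.06% of these. The isoforms were not scarcer than transcripts of single-isoform loci, with a median of 72.7 CPM against 46.8 CPM. The sums had a higher median level, 152.0 CPM. For comparison the median SD was 0.29 for NONCODE and 0.28 for Ensembl lncRNAs and 0.11 for genes, at median levels of 15.5, 16.1 and 23.1 CPM. The NONCODE and Ensembl rows were again not split by isoforms per locus. These are descriptions over rows that share libraries and reads, and were not tested.

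**Figure D4:**
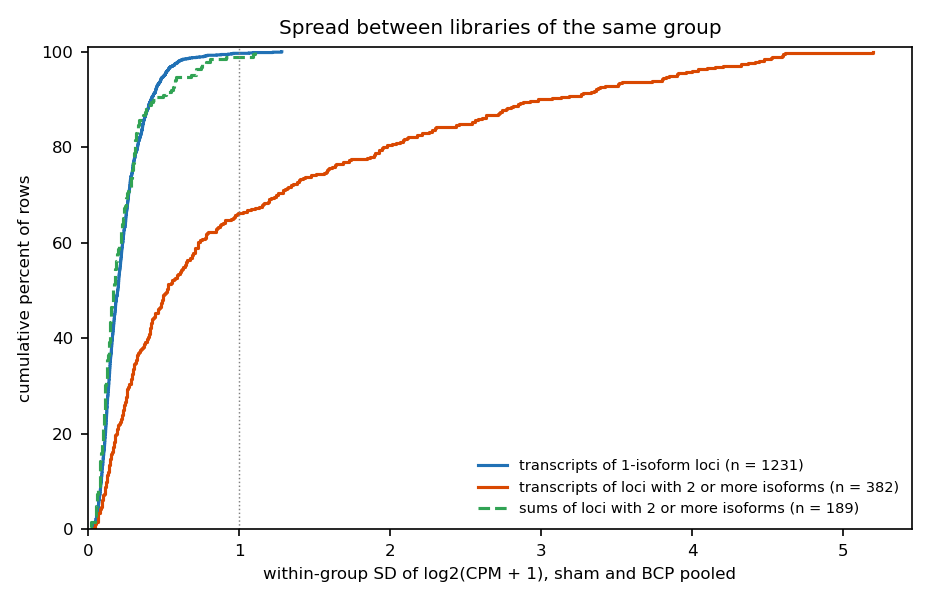
Cumulative percent of rows (y) by the within-group SD of log2(CPM + 1) (x), pooled over sham and BCP, for the tested transcripts of single-isoform loci (blue), isoforms of larger loci (orange) and sums of larger loci (green, dashed), with a dotted line at an SD of 1. The orange line lies far to the right of the others and 33.8% of it is beyond the dotted line.

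The leading isoform, the one with the most counts in a library, was compared in the 183 larger loci that had at least 20 counts in every library. It was the same in all 6 libraries in 84 loci and differed between libraries in 99. It differed within a group in 98 of these. In 3 loci (MSTRG.16440, MSTRG.29281 and MSTRG.7664) no leading isoform was shared by a sham and a BCP library, and in 1 locus the leading isoform was fixed within each group and different between them.

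Whether a row was empty in a library was then compared between sources, with no use of the groups. In each library 3.68% to 5.20% of the assembled transcripts had 0 counts, against 6.502% to 7.64% of the NONCODE and 20.9% to 25.4% of the Ensembl transcripts. The mean difference was -2.73 percentage points from NONCODE and -18.4 from Ensembl, in the same direction in 6 of 6 libraries (exact paired permutation test over the 6 libraries, two-sided, p = 0.031 for both, the smallest it can give). With fewer than 3 counts taken as empty the differences were -18.9 and -38.9 points. Among transcripts with a mean of 10 or more counts the order turned round. Then 3.04% to 4.83% of 1678 assembled transcripts were empty, against 0.459% to 0.683% of 10245 NONCODE and 0.0% to 0.402% of 249 Ensembl transcripts, a difference of 3.23 and 3.67 points (exact paired permutation test, p = 0.031 for both). Length and level differ between the sources as given above. Assembled rows exist because reads of these same libraries built them, while the other rows come from catalogues. The lower share of empty assembled rows over all transcripts was therefore favored in advance. The p of 0.031 from the permutation test measures only that the sign repeated between libraries that share the same rows.

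**Figure D5:**
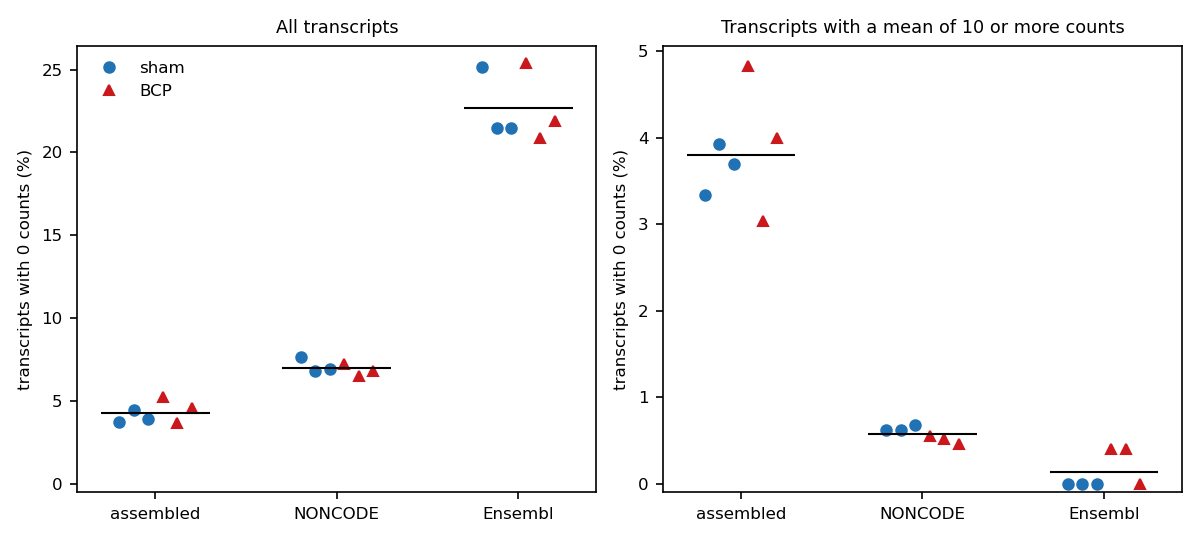
Percent of transcripts with 0 counts in each library (y, linear) for assembled, NONCODE and Ensembl lncRNAs, over all transcripts (left) and over those with a mean of 10 or more counts (right), with sham libraries as blue circles, BCP libraries as red triangles and the mean of 6 as a bar. Assembled transcripts are lowest on the left and highest on the right.

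The most abundant assembled transcripts did not differ in the same way. By counts the leading pair were MSTRG.21519.2 (chr4:58078852-58085480) and MSTRG.21519.8, which overlap the span of Copg2, a coat protein gene of the imprinted Mest region. MSTRG.21519.2 had 10550, 10807 and 12796 counts in the sham and 7375, 7979 and 4527 in the BCP libraries (log2FC -0.63 ± 0.25, adjusted p = 0.415), and MSTRG.21519.8 had 9296, 9470 and 9994 against 6789, 7050 and 4675 (-0.48 ± 0.19, adjusted p = 0.397). The counts were lower in all BCP libraries. BCP replicate 3 also held 2406 counts on MSTRG.21519.6, which had at most 5 in the others, and sham replicate 3 held 3338 on MSTRG.21519.7. The sums of the locus were 19846, 20277 and 26129 against 14169, 15034 and 11827 counts. The groups did not overlap in these sums, which had a log2FC of -0.54 ± 0.13 (edgeR adjusted p = 0.184). Per length, by the authors' FPKM averaged over the 6 libraries, the highest of the 10 was MSTRG.167.1 with 483 FPKM, a spliced transcript of 539 bases that lies 1237 bases from a row named pRNA, followed by MSTRG.21519.8 with 275, MSTRG.21519.2 with 202 and MSTRG.18411.1 with 149 FPKM.

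Of these 10, MSTRG.18411.1 (chr20:19483977-19485844, 4652 bases from Fam13c) had an adjusted p under 0.05, with 3075, 2650 and 3260 counts in the sham and 3737, 3983 and 3788 in the BCP libraries, a log2FC of 0.50 ± 0.08 (adjusted p = 0.0260) and no overlap between groups. MSTRG.1731.3, of 28894 bases in the span of Ube3a, the imprinted ubiquitin ligase gene, had 3172, 3146 and 3678 against 2837, 3271 and 3191 counts (log2FC 0.04 ± 0.05). MSTRG.31257.5 in Adgrb3, an adhesion G protein-coupled receptor of neurons, had 3754, 3759 and 4265 against 3235, 3573 and 3751 counts (-0.01 ± 0.05). MSTRG.24059.8 and MSTRG.24065.5, 170739 and 85225 bases from Pde4b, had log2FC of -0.09 ± 0.05 and -0.10 ± 0.05. MSTRG.15891.13, 25404 bases from Mast4, had -0.29 ± 0.08 (adjusted p = 0.175), and MSTRG.11892.2 and MSTRG.167.1 had -0.02 ± 0.05 and -0.09 ± 0.08. The standard errors of these 8 transcripts were 0.05 to 0.08, smaller than those of the pair over Copg2.

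Of 24 lncRNA genes known from other work, 2 had a row under that name in the gene table. Snhg11, a small nucleolar RNA host gene of neurons, had 3896, 4025 and 4355 against 3100, 3150 and 3124 counts (log2FC -0.27 ± 0.05, adjusted p = 0.000585), below the 2-fold threshold, and Miat was listed at 0 in every library.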

How the data were processed

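The 3 sham and 3 BCP libraries were grouped by their GEO labels. Reads had been filtered by the authors (Seqtk) and aligned by HISAT2 2.0.4 to the build Rnor_6.0; the authors then used StringTie 1.3.0 and predicted lncRNAs outside NONCODE and Ensembl with Gffcompare. They deposited unnormalized counts per lncRNA transcript and per gene, and the authors' FPKM values beside them; the counter and its strand setting are not given in the sources used here.

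Counts were tested with edgeR 4.0.16 (R 4.3.3; TMM, filterByExpr, robust quasi-likelihood fit on group alone, Benjamini-Hochberg adjustment over all tested rows), for transcripts, for loci with assembled isoforms summed, and for genes; isoform usage used diffSpliceDGE. A call required an adjusted p under 0.05 and over 2-fold change. Gene distances used spans in the deposited tables. Simulated counts were used to test the code. Any pair of libraries of a group differed beyond counting noise (chi-square per degree of freedom 19.4 to 22.4 over assembled transcripts). Isoforms enter this value singly, so it includes their swings within a locus and was not computed for sums of loci. The sources do not say that the samples of a group are separate animals, so p-values measure only the spread between these samples, which may be technical. The floor of 3 counts covers counting error only.

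Members, gene lists and tests were chosen with earlier results of these data known. Named were transcripts the study names, the 10 smallest p per direction among called transcripts and loci, the 10 smallest p of usage, the 10 most abundant transcripts, the 10 tested ones with the widest range within a group, the gene nearest to each and any within 10 kb of a called member, reference lncRNA genes and cell type markers; others are marked in the text. Alternatives were DESeq2 1.42.0, edgeR's likelihood ratio test, upper-quartile scaling, library size, library sizes of the gene table, no filter, at least 10 counts in every library, no fold threshold, a test against 2-fold, limma 3.58.1 on log2(FPKM + 0.1), overlapping rows of other sources added, a replicate block and each library left out.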

Additional observations from a re-analysis of the deposited data

How the results depend on the processing

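Over the 20 single transcripts and loci followed there were 342 alternatives. They gave 281 values on the same side of the threshold, 53 lost calls, 8 gained calls and 0 changes of direction. The setting without the fold threshold is counted among them but uses the main fit itself, so no call could be lost there. The loci MSTRG.29606, MSTRG.9517 and MSTRG.23177 kept their calls in 18 of 18. Transcripts called up, 6 in the report, were 11 with DESeq2, 13 with the likelihood ratio test, 10 with at least 10 counts in every library, 23 without the fold threshold, and 4 to 10 with 1 library left out. Transcripts called down, 4 in the report, were 10 with DESeq2, 8 with the likelihood ratio test, 2 with at least 10 counts in every library, 2 in the test against 2-fold, and 1 to 7 with 1 library left out. Loci called up, 7 in the report, were 13 with the likelihood ratio test, 32 without the fold threshold, and 6 to 8 with 1 library left out. Loci called down, 1 in the report, were 7 without the fold threshold, 0 with DESeq2, with library size alone, without the filter, in the test against 2-fold, in limma-trend and with the replicate block, and 0 to 1 with 1 library left out. Loci called for usage, 4 in the report, were 5 to 7 with 1 library left out. The cause of these shifts was not tested.

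The replicate numbers did not pair the samples (correlations of deviations between sham and BCP libraries from -0.03 to 0.03), and the replicate block gave 4 transcripts up and 5 down, 5 loci up and 3 loci for usage. Over all lncRNA transcripts, 139 up and 9 down in the report, the counts were 43 and 6 with the block, 224 and 26 with the likelihood ratio test, 188 and 38 with DESeq2 and 27 and 2 in the test against 2-fold. The shares of lncRNA counts moved by less than the spread between libraries under all 9 alternatives. The difference in empty transcripts was -2.87 to -2.49 percentage points from NONCODE and -18.7 to -17.8 from Ensembl with 1 library left out (the smallest exact p is then 0.0625), and turned to 3.23 and 3.67 among transcripts with a mean of 10 or more counts. MSTRG.8678 lost its call with the block as a locus (adjusted p = 0.0743), and its transcript also without sham replicate 2, BCP replicate 2 or BCP replicate 3 (edgeR adjusted p between 0.0548 and 0.0628). Of the 122 isoforms that were empty in part of a group, 62 passed the filter on low counts, and 155 assembled transcripts were not tested at this depth.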
